A study of Mus musculus with 8 samples.

Results

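Type I interferon response genes were followed in mammary gland macrophages of mice with and without an inducible fibroblast growth factor receptor 1 (FGFR1). The set was a list of 42 genes, chosen by name as known targets of type I interferon, with earlier results of these data known. Shares of all genes, given beside its counts, are therefore descriptions and no independent test. Each gene was read from a probe set assigned to it alone. Of the 42 genes, 39 had such a probe set and all 39 passed the filter on low signal, among 13041 genes tested. Oas1g and Ifi44 had no probe set of their own, and Isg15 shared its probe set with a second gene, so these 3 were not analysed here. Signals of 35 of the 39 genes lay above the array median on all 8 arrays. Those of Oas3, Mx2, Dhx58 and Stat2 did so on 6, 4, 7 and 5 arrays.

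In MMTV-iFGFR1 mice the mouse mammary tumour virus promoter, used to drive transgenes in mammary epithelium, controls the inducible receptor. A dimerizer, a small molecule that joins receptor molecules, was injected into transgenic females and into littermates without the transgene, all of the inbred FVB strain and 6 weeks old at the start. The 4 groups were control after 48 hours, transgenic after 48 hours, control after 4 weeks and transgenic after 4 weeks, and every group received the dimerizer. Cells stained for Cd11b were sorted from digested glands, RNA of 3 mice was pooled for each Affymetrix array, and each group had 2 pools. Cd11b marks macrophages but is shared by monocytes, neutrophils, NK cells and part of the dendritic cells. No group without dimerizer was analysed here.

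Type I interferons are secreted proteins that bind a shared receptor, IFNAR, on nearly all nucleated cells. The receptor's kinases JAK1 and TYK2 activate STAT2, which acts with IRF9 in the factor ISGF3. ISGF3 binds a promoter element called ISRE and switches on antiviral genes, and a second element called GAS lies in promoters of genes that answer interferon gamma. Macrophages both make and answer type I interferon, and their tonic response varies with microbes, dying cells and other local stimuli.

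Promoters are shown for 5 genes that stand for the main roles and for both elements, since the set was defined by that control. The ISRE core was searched as GAAA, then any 2 bases, then GAAA, and GAS as TTCNNNGAA, on both strands of RefSeq promoters of build GRCm38.p6, 250 bases before to 50 bases after the start. The 250 bases before the start are printed 5′ to 3′ on the strand of the gene, with every match in capitals. Rsad2 lies on the minus strand at chr12:26456453-26456702, Ifit1 on the plus strand at chr19:34640639-34640888, Oas1a on the minus strand at chr5:120907526-120907775, Cxcl10 on the minus strand at chr5:92348890-92349139 and Irf1 on the plus strand at chr11:53769764-53770013.
Rsad2: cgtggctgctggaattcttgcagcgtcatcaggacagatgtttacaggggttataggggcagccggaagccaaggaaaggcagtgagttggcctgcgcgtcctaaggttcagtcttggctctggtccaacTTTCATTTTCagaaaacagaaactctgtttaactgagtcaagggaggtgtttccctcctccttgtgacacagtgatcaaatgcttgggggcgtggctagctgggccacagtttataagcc
Ifit1: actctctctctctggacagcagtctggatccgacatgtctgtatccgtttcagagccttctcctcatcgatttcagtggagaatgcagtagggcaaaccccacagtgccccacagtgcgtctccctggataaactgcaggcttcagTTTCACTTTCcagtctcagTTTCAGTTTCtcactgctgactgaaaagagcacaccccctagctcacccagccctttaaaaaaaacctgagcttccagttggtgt
Oas1a: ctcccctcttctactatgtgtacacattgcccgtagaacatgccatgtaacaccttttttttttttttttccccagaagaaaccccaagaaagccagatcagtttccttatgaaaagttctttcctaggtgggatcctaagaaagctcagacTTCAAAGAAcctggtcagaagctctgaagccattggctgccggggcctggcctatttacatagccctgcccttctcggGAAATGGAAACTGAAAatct
Cxcl10: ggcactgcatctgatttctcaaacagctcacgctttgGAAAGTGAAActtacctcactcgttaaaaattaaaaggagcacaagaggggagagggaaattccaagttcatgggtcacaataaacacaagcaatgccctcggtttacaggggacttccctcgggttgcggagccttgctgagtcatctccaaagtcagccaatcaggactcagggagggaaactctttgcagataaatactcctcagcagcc
Irf1: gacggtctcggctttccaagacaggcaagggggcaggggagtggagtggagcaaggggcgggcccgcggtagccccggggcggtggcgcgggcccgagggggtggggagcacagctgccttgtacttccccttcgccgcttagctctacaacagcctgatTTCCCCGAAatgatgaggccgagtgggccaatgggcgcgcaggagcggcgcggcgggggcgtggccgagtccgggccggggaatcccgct

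In Rsad2 the ISRE match was on the other strand, 120 to 111 bases before the start. Ifit1 held a pair of ISRE matches on the other strand, at 104 to 95 and at 85 to 76 bases before the start. Oas1a had overlapping ISRE matches at 20 to 11 and 14 to 5 bases before the start, and a GAS match at 98 to 90. In Cxcl10 the ISRE match lay 213 to 204 bases before the start, and in Irf1 a GAS match lay at 90 to 82 with no ISRE core in the window. RefSeq promoters matched 32 of the 42 genes. Among these 32 genes, 16 (50%) had an ISRE core and 10 (31.25%) had GAS, against 3.99% and 9.55% of all 27025 genes with a promoter. Counted by promoter, ISRE stood in 17 of 40 (42.5%) against 3.44% of 32851, GAS in 10 (25%) against 8.3%, and matches of both overlapped in 2 promoters. In a list of other interferon-stimulated genes, 17 of 39 with a promoter (43.59%) had an ISRE core and 1 (2.56%) had GAS. A GAS share above that of all genes was thus not found in that list. A match describes the sequence and shows no binding.

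Signals are the deposited MAS5 signal intensities, linear values scaled by the authors to 1 target per array. Differences are log2 differences, computed on log2(signal + 30.8), and understate the change of dim genes. Values of a group are given as pool 1, then pool 2. Where nothing says that pools came from separate experiments, p-values measure only the spread between these pools. In such bulk samples, fewer cells of a type and less RNA per cell cannot be told apart.

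Before the results, 3 arrays need a description. On control 4 weeks pool 1 the median level of the 39 genes was above that of all other arrays. On control 4 weeks pool 2 the beta-actin control probe sets gave a 3′ to 5′ ratio, a measure of RNA quality, of 37.0, against 6.84 to 13.9 on the other 7 arrays. Transgenic 4 weeks pool 2 has labels that conflict: its title, source and genotype say transgenic, and its description says without transgene. It was used as transgenic. At 4 weeks the median of the set and the counts of its genes are given with and without each pool, and single genes and other lists mostly from all pools. All 12 macrophage markers lay above the array median on all 8 arrays. All 4 monocyte and all 7 fibroblast markers did so too, so this does not single out macrophages.

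The pools of the 4 weeks control differed from each other in the interferon response genes, with pool 1 the higher. For each gene the deviation of an array from the gene's mean over the 8 arrays was taken on the log2 scale. The median deviation of the 39 genes was 1.17 on control 4 weeks pool 1 and 0.13 on pool 2. It was −0.09 and −0.69 on the transgenic 4 weeks pools, −0.06 and −0.02 on the transgenic 48 hours pools, and −0.41 and 0.17 on the control 48 hours pools. Control 4 weeks pool 1 gave the highest of the 8 signals for 32 of the 39 genes (82.1%), against 15.3% of all genes tested. Transgenic 4 weeks pool 2 gave the lowest for 23 of the 39 (59.0%), against 15.0% of all genes.

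**Figure D1:**
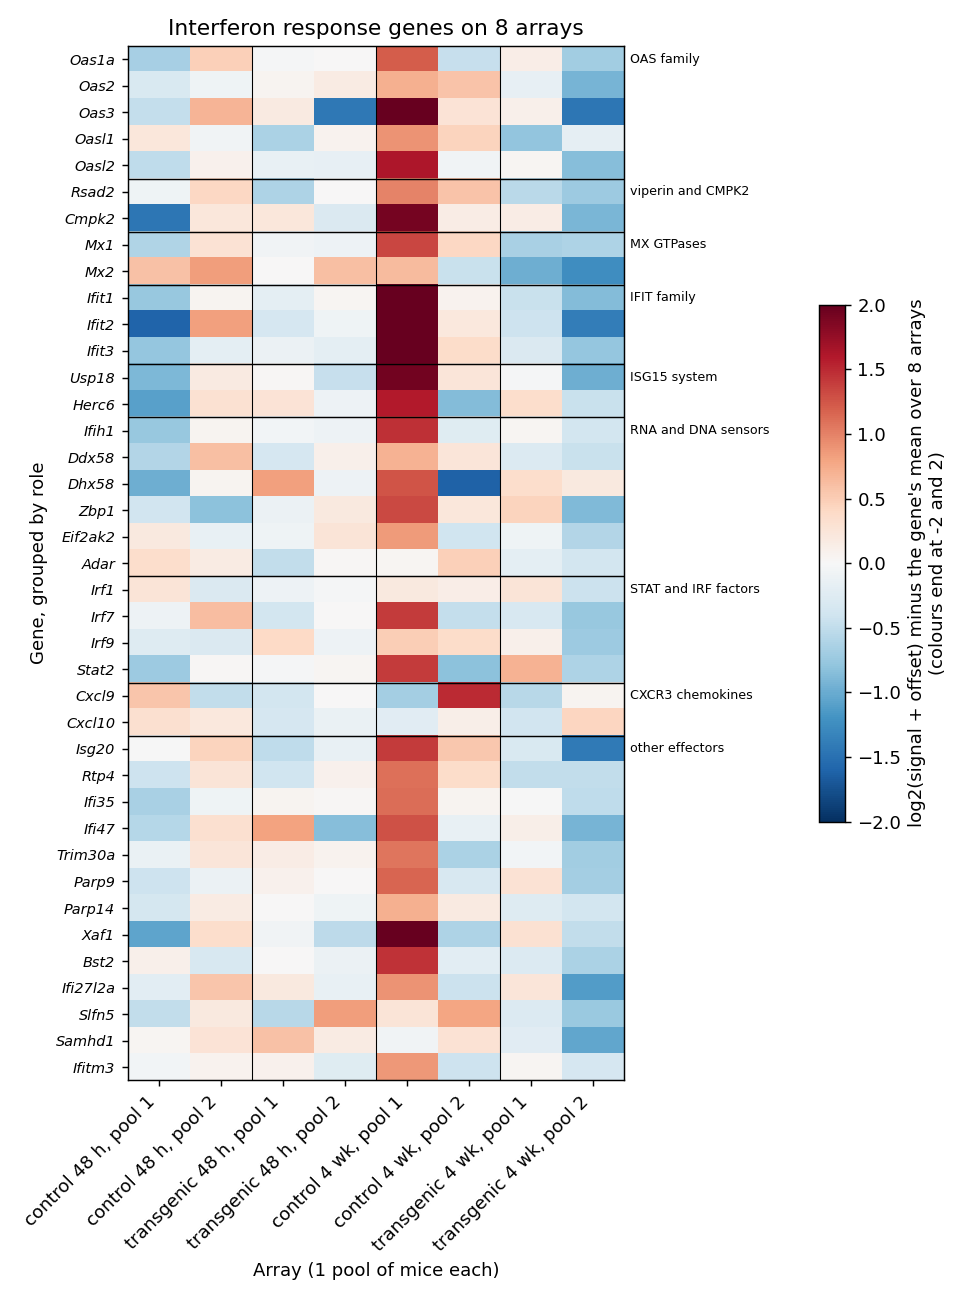
Heat map of the 39 measured interferon response genes (rows, grouped by role) on the 8 arrays (columns). Colour gives log2(signal + offset) minus the gene's mean over the 8 arrays, with colours ending at −2 and 2; control 4 weeks pool 1 is the highest array for 32 genes and transgenic 4 weeks pool 2 the lowest for 23.

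In the probe sets used, the 7 genes whose highest array was another one were Mx2, Samhd1, Slfn5, Adar, Irf1, Cxcl9 and Cxcl10. Within the 4 weeks control, 34 of the 39 genes were higher in pool 1 than in pool 2, with a median difference of 1.29, and 24 differed by over 1 in that direction, as did 7.06% of all genes. Pool 1 exceeded the highest of the other 7 arrays by over 1 for 12 genes, against 0.383% of all genes. In size, without regard to sign, the median difference between pools over the 39 genes was 1.33 in the 4 weeks control, 0.65 in transgenic 4 weeks, 0.60 in control 48 hours and 0.35 in transgenic 48 hours. Over all genes these medians were 0.43, 0.35, 0.37 and 0.33.

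At 4 weeks, 37 of the 39 genes had lower mean log2 signals in transgenic than in control macrophages, with a median log2 difference of −0.85. The median over all 13041 genes was −0.02. No gene of the set passed limma's test at an adjusted p of 0.05 (0 of 39; over all genes 0%), and 19 of the 39 had an unadjusted p under 0.05 with lower signals, against 3.11% of all genes. Both transgenic pools lay below both control pools for 21 of the 39 genes (53.8%), against 17.2% of all genes, and both lay above for 0, against 14.7%. Dhx58 and Cxcl10 were the exceptions in sign, with differences of 0.45 (SE 0.76) and 0.088 (SE 0.29).

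How much of this rests on the higher control pool can be read from each control pool alone. Against control pool 1 the transgenic mean was lower for 37 of the 39 genes, with a median of −1.49. Against control pool 2 it was lower for 29 of the 39 genes, with a median of −0.50. Single pools gave a median of −0.18 for transgenic pool 1 minus control pool 2, with 23 genes lower, and −0.78 for transgenic pool 2 minus control pool 2, with 33 lower. Leaving out a pool sets 1 pool against 2, which raises the count of genes without overlap over all genes as well, and limma then takes the lone pool to vary like the others. Without control pool 1, 22 of the 39 genes did not overlap in the lower direction, against 37.8% of all genes, and 5 in the higher, against 33.2%. The unadjusted p was then under 0.05 with lower signals for 11 genes, against 3.86% of all genes. Without transgenic pool 2, the pool with conflicting labels, the median was −0.71, with 22 genes lower without overlap, against 29.3% of all genes, and 8 with an unadjusted p under 0.05, against 1.92%. Without control pool 2, the pool with the high actin ratio, the median was −1.49, with 36 genes lower without overlap, against 35.2%, and 30 with an unadjusted p under 0.05, against 2.88%. Without transgenic pool 1 the median was −1.22, with 32 genes, against 36.5%, and 19, against 3.99%. With the actin ratio of each array as a covariate the median was −1.34.

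**Figure D2:**
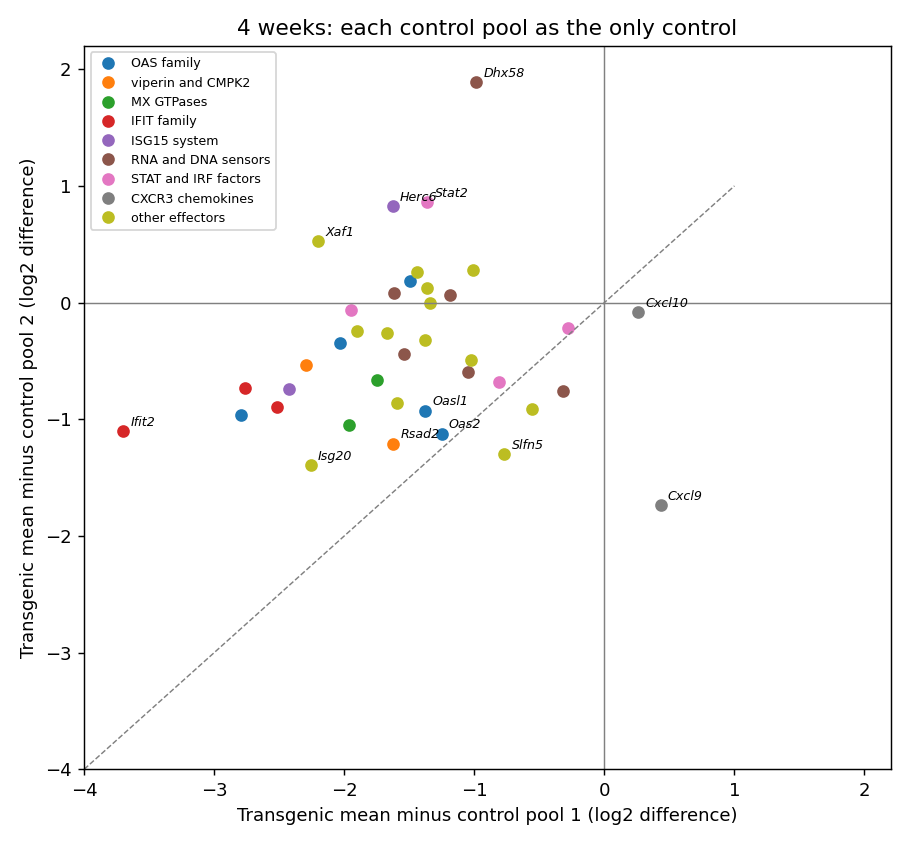
Each point is 1 interferon response gene at 4 weeks, coloured by role: the mean of both transgenic pools minus control pool 1 (x axis) against the same mean minus control pool 2 (y axis), both as log2 differences, with the dashed line marking equal values. 37 of 39 genes are below 0 on the x axis and 29 of 39 on the y axis, with medians of −1.49 and −0.50.

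The IFIT genes encode proteins that bind viral RNA and hold back its translation, and as a group they deviated most on control 4 weeks pool 1. Ifit2 signals were 20224 and 3318 in the 4 weeks control pools and 2153 and 1081 in the 4 weeks transgenic pools. At 48 hours they were 923 and 5122 for control and 2281 and 2702 for transgenic pools. One 4 weeks control pool therefore exceeded every other array, and both transgenic pools at 4 weeks lay below both controls, while the 48 hours control pools enclosed the transgenic ones. Ifit1 signals were 7218 and 1744 in 4 weeks controls and 1212 and 889.9 in 4 weeks transgenic pools, after 969 and 1712 for control and 1438 and 1699 for transgenic pools at 48 hours. Ifit3 signals were 3544 and 1131 in 4 weeks controls and 707 and 495 in 4 weeks transgenic pools, after 494 and 760.2 for control and 795 and 755 for transgenic pools at 48 hours. Control 4 weeks pool 1 was 3.13 to 4.14 times the next highest array for these 3 genes. The genotype difference at 4 weeks was −2.40 (SE 0.84, adjusted p = 0.965) for Ifit2, −1.75 (SE 0.54, adjusted p = 0.965) for Ifit1 and −1.71 (SE 0.46, adjusted p = 0.906) for Ifit3. Against control pool 2 alone it was −1.10, −0.73 and −0.90.

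Rsad2 encodes viperin, an enzyme that makes an antiviral nucleotide, and its neighbour Cmpk2 encodes a mitochondrial nucleotide kinase. Rsad2 signals were 18431 and 13801 in 4 weeks control pools and 6359 and 5582 in 4 weeks transgenic pools, and 8776 and 12445 for control and 6026 and 9388 for transgenic pools at 48 hours. Both 4 weeks control pools were above all other arrays, so here the second control pool stood with the first. The genotype difference at 4 weeks was −1.42 (SE 0.27, adjusted p = 0.488), with an unadjusted p of 0.000346, the smallest among the 39 genes in that comparison. Cmpk2 signals were 3573 and 1034 in 4 weeks controls and 1032 and 477 in 4 weeks transgenic pools, and 319 and 1085 for control and 1086 and 750.1 for transgenic pools at 48 hours. For Cmpk2 control pool 2 almost equalled the higher transgenic pool, and the difference was −1.41 (SE 0.64, adjusted p = 0.965).

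**Figure D3:**
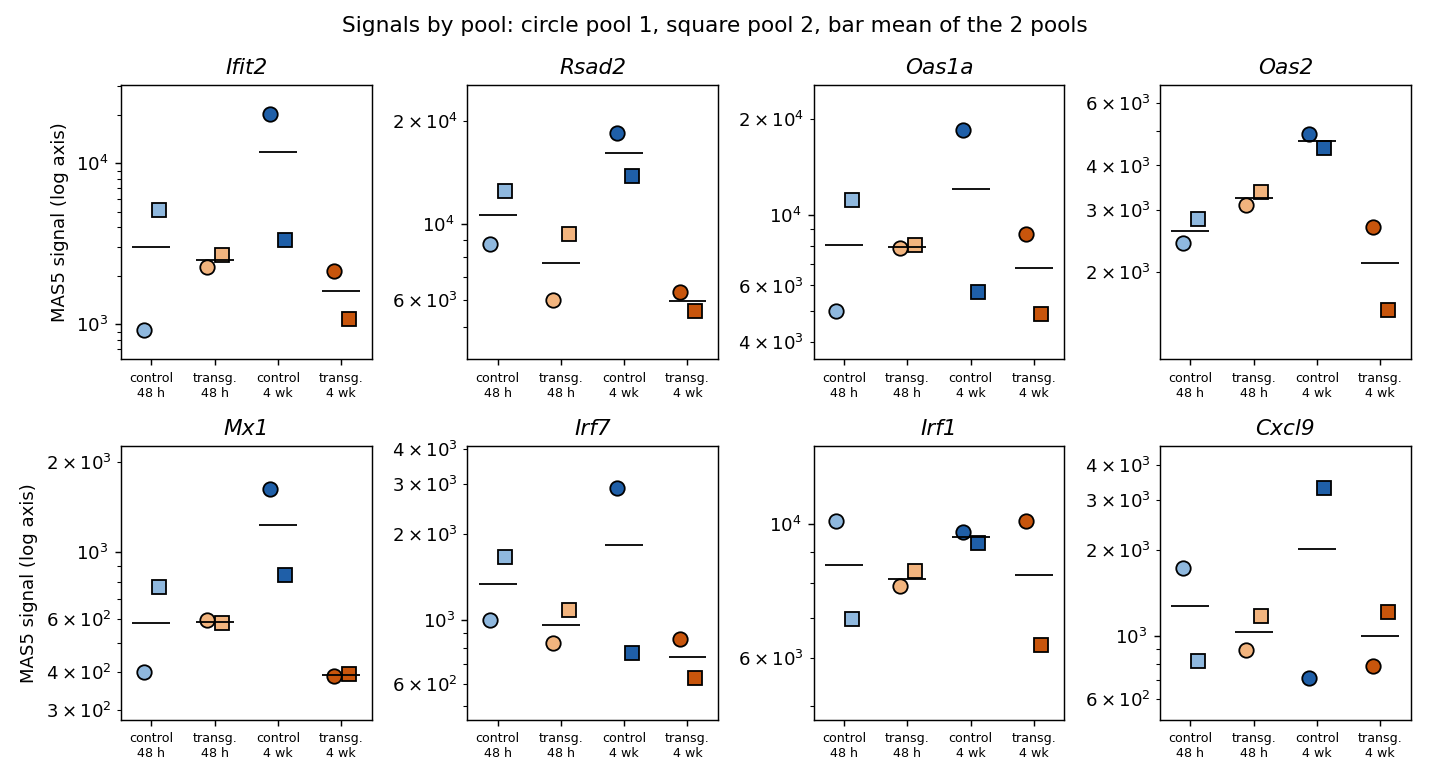
MAS5 signals (log axis) of 8 interferon response genes in the 4 groups, with circles for pool 1, squares for pool 2 and bars for the mean of the 2 pools. Rsad2, Oas2 and Mx1 are higher in both 4 weeks control pools than in any other array, Ifit2, Oas1a and Irf7 stand out in control 4 weeks pool 1 only, and Irf1 and Cxcl9 follow neither pattern.

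Of the OAS family, whose active members make the messenger that switches on RNase L, 5 genes were measured and all 5 had lower mean log2 signals at 4 weeks in transgenic pools, with a median difference of −1.19. Oas2 signals were 4909 and 4494 in 4 weeks control pools and 2675 and 1562 in 4 weeks transgenic pools, against 2416 and 2817 for control and 3102 and 3364 for transgenic pools at 48 hours. The control pools lay close together at both times, and the genotype difference at 4 weeks was −1.19 (SE 0.27, adjusted p = 0.673), close to the same against control pool 1 (−1.25) and pool 2 (−1.12). Oasl1 signals were 4406 and 3206 for control and 1349 and 2073 for transgenic pools at 4 weeks, with no overlap and a difference of −1.15 (SE 0.32, adjusted p = 0.95). Oas1a, in contrast, overlapped: its signals were 18412 and 5731 for control and 8713 and 4896 for transgenic pools at 4 weeks, with a difference of −1.49 against control pool 1 and 0.19 against pool 2. Oasl2 signals of 7220.4 and 2222 for control and 2381 and 1274 for transgenic pools overlapped too. Oas3 signals were 1380.5 and 364 for control and 317 and 88 for transgenic pools, without overlap, and its difference was −1.88 (SE 0.75, adjusted p = 0.965). The signal of 88, on transgenic pool 2, lay under that array's median of 100.6.

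The MX genes encode GTPases that block the replication of many viruses. Mx1 signals were 1618 and 842 in 4 weeks control pools and 389 and 396 in 4 weeks transgenic pools, and 402 and 768 for control and 596 and 584 for transgenic pools at 48 hours. Both control pools at 4 weeks were the highest of the 8, the transgenic pools nearly coincided, and the difference was −1.50 (SE 0.38, adjusted p = 0.808). Mx2 lay near or under the array median, with signals of 145 and 52.1 in controls and 26.5 and 16.8 in transgenic pools at 4 weeks, against 139 and 169.9 for control and 82.6 and 140.2 for transgenic pools at 48 hours. The 4 weeks transgenic pools were the lowest for Mx2, but its 4 weeks control pools were not the highest, and the difference was −1.21 (SE 0.58, adjusted p = 0.979).

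Usp18 removes the ubiquitin-like protein ISG15 from its targets and damps the interferon receptor, and Herc6 is the mouse ligase that attaches ISG15. Usp18 signals were 5082 and 1559.7 in 4 weeks control pools and 1288 and 655 in 4 weeks transgenic pools, with a difference of −1.58 (SE 0.55, adjusted p = 0.965). Herc6 signals were 3716 and 653 for control and 1562 and 891 for transgenic pools, so that the transgenic pools lay between the control pools. For Herc6 the difference was −1.63 against control pool 1 and 0.82 against pool 2. Its dimmer kept probe sets gave −0.59 and −0.68 against both pools, with control pools 0.92 and 1.45 apart. The size of this turn therefore rests on the probe set.

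The 6 sensors of foreign or modified RNA and DNA had a median difference of −0.66 at 4 weeks. Ifih1, which encodes the RNA sensor MDA5, had signals of 17453 and 5339.9 for control and 6519 and 4921 for transgenic pools, so that only control pool 1 stood apart. Ddx58, which encodes RIG-I, had signals of 3496 and 2540.2 for control and 1784 and 1573 for transgenic pools, without overlap, and a difference of −0.82 (SE 0.37, adjusted p = 0.965). Dhx58, which encodes LGP2, had the widest spread between control pools, 874 and 92.6, with 452 and 401 in transgenic pools, and its second probe set that passed the filter gave the opposite sign, −0.47. Zbp1, a sensor of Z-form nucleic acids, had signals of 1840.3 and 841 for control and 987 and 376 for transgenic pools, which overlapped. Eif2ak2, which encodes the kinase PKR, had 625 and 244 for control and 311 and 212 for transgenic pools, overlapping as well, and 1 of its 3 probe sets gave the opposite sign at 4 weeks. Adar, an RNA-editing enzyme that marks self RNA, had its highest array in control pool 2: its signals were 1473 and 2010.0 for control and 1252 and 1103 for transgenic pools, with a difference of −0.54 (SE 0.27, adjusted p = 0.981).

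The 4 transcription factors had a median difference of −0.50 at 4 weeks. Irf7 is itself induced by interferon and amplifies its production. Its signals were 2916 and 769 in 4 weeks control pools and 858 and 629 in transgenic pools, after 1006 and 1671 for control and 832 and 1091 for transgenic pools at 48 hours, so that control pool 2 lay among the transgenic pools. Its difference was −1.95 against control pool 1 and −0.063 against pool 2. Irf9, the DNA-binding subunit of ISGF3, had signals of 1392 and 1264 for control and 1052 and 575 for transgenic pools at 4 weeks, with no overlap and a difference of −0.74 (SE 0.32, adjusted p = 0.965). Stat2, its partner, had signals of 502 and 83.3 for control and 297 and 101 for transgenic pools, which overlapped. Irf1, a factor induced by interferon gamma as well, had signals of 9730.1 and 9316 for control and 10145 and 6312 for transgenic pools and a difference of −0.25 (SE 0.26, adjusted p = 0.993), with its 48 hours values (10127 and 6971 in control, 7899 and 8365 in transgenic) in the same range.

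Cxcl9 and Cxcl10 encode chemokines that attract T and NK cells through CXCR3, and neither followed the rest. Cxcl9, induced chiefly by interferon gamma, had signals of 714 and 3318 in 4 weeks control pools and 783 and 1211 in transgenic pools, and 1730.3 and 818 for control and 896 and 1175 for transgenic pools at 48 hours. Its difference at 4 weeks was −0.65 (SE 0.60). Its order of the 4 weeks control pools was the reverse of most other genes, with pool 2 highest and pool 1 lowest of all 8 arrays. Cxcl10 signals were 1881 and 2385 for control and 1692 and 2998 for transgenic pools at 4 weeks, and 2759 and 2556 for control and 1739 and 2019 for transgenic pools at 48 hours. The median deviation of this pair was −0.46 on control 4 weeks pool 1, where each of the other 8 groups of genes lay between 0.95 and 2.11.

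**Figure D4:**
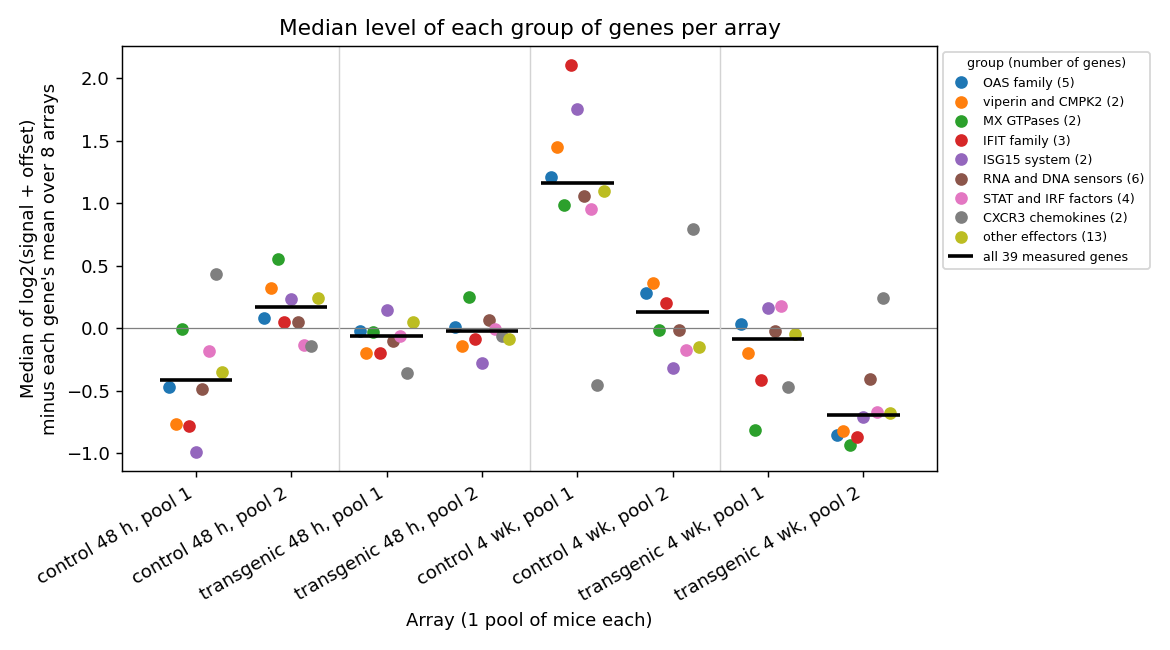
Median deviation of each group of genes from the genes' means over 8 arrays (y axis, log2) for each array (x axis), with a point per group and a black bar for all 39 genes. On control 4 weeks pool 1 the IFIT genes are highest at 2.11 and the CXCR3 chemokines lowest at −0.46; on transgenic 4 weeks pool 2 the bar lies at −0.69.

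Among the 13 other effectors, all 13 had lower mean log2 signals in transgenic pools at 4 weeks, with a median of −0.84, and 7 did so without overlap, against 17.2% of all genes. Isg20, an exonuclease that degrades RNA, had signals of 2216 and 1202 for control and 656 and 290.1 for transgenic pools and a difference of −1.82 (SE 0.41, adjusted p = 0.673). Rtp4, a chaperone of receptors that also restrains interferon responses, had 17133 and 10327 for control and 5676 and 5653 for transgenic pools, with a difference of −1.23 (SE 0.30, adjusted p = 0.747). For both genes the 4 weeks control pools were the highest 2 of the 8 arrays. Parp14, an ADP-ribosyltransferase, had signals of 13760.4 and 9549 for control and 7008 and 6525 for transgenic pools and a difference of −0.76 (SE 0.24, adjusted p = 0.965). Bst2 encodes tetherin, which holds budding virus at the membrane, and its signals were 1219 and 364 for control and 346 and 266 for transgenic pools, with only control pool 1 apart. Ifi35, whose product binds other interferon-induced proteins, was read from a type of probe set that can match several transcripts. Its signals were 27188 and 13021 for control and 12384 and 8761 for transgenic pools, with a difference of −0.85 (SE 0.33, adjusted p = 0.965). Other kept probe sets of Ifi35 gave −0.23 and −0.74. For the one at −0.23 the transgenic mean lay between the control pools. Xaf1, a proapoptotic factor, had signals of 6253 and 919 for control and 1777 and 1000.3 for transgenic pools and turned from −2.20 against control pool 1 to 0.52 against pool 2. Its other kept probe set, with a mean signal of 134 beside 1849, gave −0.88 with control pools 0.01 apart, so this turn rests on the probe set.

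Ifitm3, which blocks entry of viruses at endosomes, had signals of 43833 and 17912 for control and 24763 and 18989.5 for transgenic pools, and Ifi27l2a had 28679 and 11364 for control and 18197 and 7039 for transgenic pools; both overlapped. Parp9, a partner of the ubiquitin ligase Dtx3l, had 3963 and 1388 for control and 2138 and 1079.6 for transgenic pools, which overlapped as well. Ifi47, an interferon-inducible GTPase, overlapped with 32211 and 12054 for control and 14466 and 7006 for transgenic pools. Trim30a, a TRIM protein that restrains NF-kB signalling, overlapped with 9688 and 2961 for control and 4465 and 2825 for transgenic pools. The other kept probe set of Trim30a, with a mean signal of 2717.5, gave −1.02 with control pools 1.34 apart. There the transgenic mean lay below both control pools. For Slfn5 and for Samhd1, a nucleotide-degrading enzyme that starves viruses, control pool 1 was not the higher control pool in the probe set used. Other probe sets that passed the filter gave pool 1 minus pool 2 of 1.42 and 0.08 on the log2 scale for Slfn5, and of 3.23, 0.86, 0.56 and −0.68 for Samhd1, so this order rests on the choice of probe set. Slfn5 signals were 915 and 1338 for control and 622 and 442 for transgenic pools, with a difference of −1.03 (SE 0.45, adjusted p = 0.965). Samhd1 signals were 37752 and 48381 for control and 33997 and 19443 for transgenic pools, with a difference of −0.73 (SE 0.27, adjusted p = 0.965), and 1 of its 5 probe sets gave 0.59. Probe sets also disagreed in sign at 4 weeks for Cxcl9, where the second gave 0.09, which makes 4 such genes among the 16 with several probe sets kept.

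At 48 hours the set showed no common direction. The median log2 difference was 0.06, against 0.04 over all genes, with 25 genes higher and 14 lower in transgenic pools. No gene passed limma's adjusted test (0 of 39; over all genes 0%), and 0 had an unadjusted p under 0.05, against 2% of all genes lower and 2.07% higher. Transgenic pools lay below control pools for Adar, Cxcl10 and Isg20 (3 of 39, against 16.1% of all genes) and above for Oas2, Zbp1, Irf9, Ifi35 and Parp9 (5 of 39, against 18.9%). Zbp1 signals, for example, were 542 and 393 for control and 658 and 822 for transgenic pools, with a difference of 0.64 (SE 0.47, adjusted p = 0.976). Isg20 signals were 820.3 and 1130.4 for control and 572 and 738 for transgenic pools, with a difference of −0.55 (SE 0.41, adjusted p = 0.976). The 48 hours control pools differed from each other by a median of 0.60 in size, with pool 1 higher for 9 of the 39 genes.

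The genotype difference at 4 weeks minus that at 48 hours had a median of −0.94 and was negative for 38 of the 39 genes, all but Cxcl10. Limma called 0 of 39 genes (over all genes 0%), with adjusted p of at least 0.988, and 12 had an unadjusted p under 0.05 in the lower direction, against 2.58% of all genes. Oas2 had the smallest unadjusted p, 0.00279, with a difference of −1.49 (SE 0.38), and Ifit3 followed at −2.03 (SE 0.66). Without control 4 weeks pool 1 the median was −0.41, and without control 4 weeks pool 2 it was −1.58. Over both times together, with time as a covariate, the median genotype difference was −0.42. There limma again called 0 of 39 (over all genes 0%), and 6 genes, Oas3, Oasl1, Rsad2, Adar, Isg20 and Rtp4, had an unadjusted p under 0.05 in the lower direction, against 2.5% of all genes.

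Between 48 hours and 4 weeks, control and transgenic pools went in opposite directions in the median. These comparisons share arrays with those of genotype and are not independent of them. In control mice 36 of the 39 genes were higher at 4 weeks, with a median of 0.69, and limma called 0 of 39, against 0.00767% of all genes. The unadjusted p was under 0.05 for 11 genes in the higher direction, against 3.37% of all genes. Pools did not overlap for 14 genes in the higher direction, against 18% of all genes, and for 1, Cxcl10, in the lower direction, against 13.8%. Ifit3 had the smallest p, with a difference of 1.66 (SE 0.46, adjusted p = 0.586), and Oas2, whose 4 control pools split cleanly by time, had 0.84 (SE 0.27, adjusted p = 0.644). Without control 4 weeks pool 1 the median of the set was 0.18, and without pool 2 it was 1.18.

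In transgenic mice 36 of the 39 genes were lower at 4 weeks than at 48 hours, with a median of −0.30. Limma called 0 of 39 genes (over all genes 0%), and 3 genes, Samhd1, Oas2 and Mx2, had an unadjusted p under 0.05 in the lower direction, against 1.04% of all genes. Pools did not overlap for 13 genes in the lower direction, against 14.5% of all genes, and for 0 in the higher direction, against 14.1%. Samhd1 signals were 59452 and 44421 at 48 hours and 33997 and 19443 at 4 weeks, with a difference of −0.998 (SE 0.27, adjusted p = 1). The 13 included all 3 IFIT genes and both MX genes. Without transgenic 4 weeks pool 2, whose labels conflict, the median was −0.05, and without pool 1 it was −0.63.

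Genes of the same pathway outside the set gave the following. A list of 39 other measured interferon-stimulated genes had a median difference of −0.59 at 4 weeks, with 33 lower and 6 higher in transgenic pools. Limma called none of the 39. An unadjusted p under 0.05 was found for 11 in the lower direction, against 3.11% of all genes, and for 1 in the higher, against 1.96%. Pools did not overlap for 14 in the lower direction, against 17.2% of all genes, and for 1 in the higher, against 14.7%. The median of this list was −0.20 without control pool 1, −1.11 without control pool 2, −0.89 without transgenic pool 1 and −0.37 without transgenic pool 2. The smallest p-values among those without overlap were those of Parp11 (−1.003), Helz2 (−1.03), Phf11d (−1.27) and Tor3a (−0.94). This list also stood highest on control 4 weeks pool 1, with a median deviation of 0.87, and lowest on transgenic 4 weeks pool 2, with −0.48.

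Genes upstream of these targets had smaller median differences. The 9 receptors and kinases had a median difference of −0.061 at 4 weeks and a median deviation of −0.059 on control 4 weeks pool 1. Ifnar1 and Ifnar2, the chains of the type I receptor, had differences of 0.24 (SE 0.42) and −0.40 (SE 0.35), and the kinases Jak1 and Tyk2 had 0.33 (SE 0.23) and −0.22 (SE 0.29). Of 14 upstream sensing and signalling genes, 11 had lower and 3 higher mean log2 signals, with a median of −0.26 and a deviation of 0.13 on control 4 weeks pool 1. Ikbke, a kinase that activates IRF3 and is itself inducible, stood at −1.70 (SE 0.39, adjusted p = 0.673) with signals of 213 and 283 for control and 53.9 and 55.4 for transgenic pools. Both of its transgenic signals lay under the array medians of 105.3 and 100.6. The 6 feedback inhibitors and 4 other transcription factors had medians of −0.063 and −0.0025, and limma called none of these lists' genes. At 4 weeks 1 of them, Ikbke, had an unadjusted limma p under 0.05, in the lower direction. Over all genes the shares were 3.11% lower and 1.96% higher. The count is close to the share of all genes, so it is not a result about these lists.

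The 9 interferon genes with a probe set had signals of at most 246.7 (Ifnz), beside array medians of 96.4 to 126.9. Ifnb1 signals were 210.5 and 225 for control and 89.7 and 86.4 for transgenic pools at 48 hours, and 101 and 138 for control and 161 and 208 for transgenic pools at 4 weeks, and its difference was −1.06 (SE 0.41, adjusted p = 0.976) at 48 hours and 0.52 (SE 0.41, adjusted p = 0.986) at 4 weeks. At 48 hours all 3 ligands tested had lower mean log2 signals in transgenic pools, with a median of −1.07. Ifnb1 and Ifnz (2 of 3) did not overlap, against 16.1% of all genes, and had an unadjusted limma p under 0.05, against 2%. Of the 9 interferon genes only these 3 passed the filter, which a dim gene can do through the groups where it is higher. These counts are therefore no result about the ligands. Both transgenic 48 hours signals of Ifnb1 lay under the array medians of 96.4 and 105.8. Ifnz signals were 247 and 174 for control and 125 and 27.7 for transgenic pools at 48 hours. On control 4 weeks pool 1, where the median of the 39 genes was highest, Ifnb1 was lower than on both 48 hours control pools. Ifng lay below the median on all 8 arrays, between 4.3 and 99.5, and Ifna1, Ifna4 and Ifna5 did so too. Without detection calls, such dim signals cannot be told apart from absence of the transcript.

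**Figure D5:**
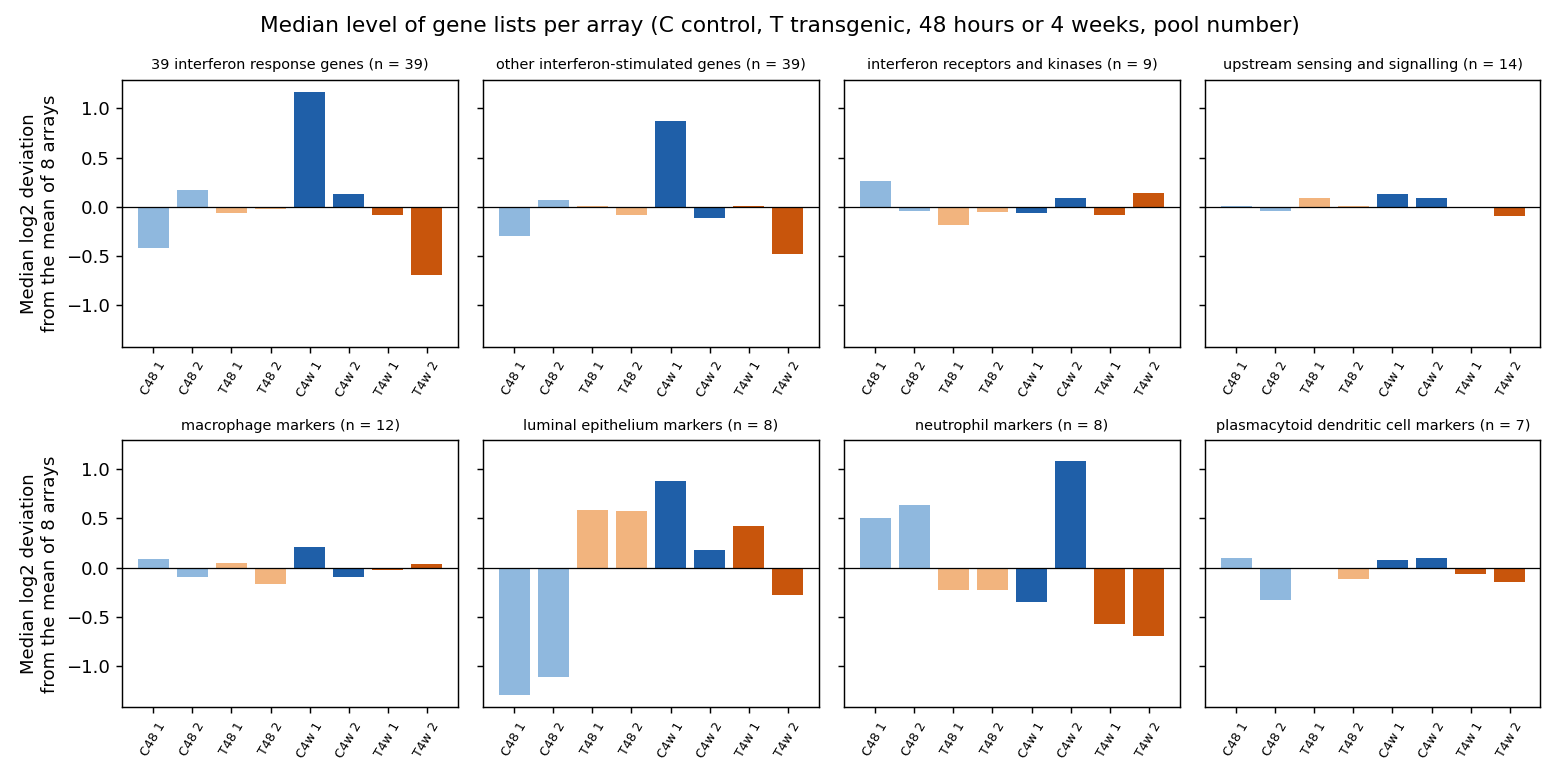
Median deviation from the mean of 8 arrays (y axis, log2) of 8 gene lists on each array (x axis; C control, T transgenic, with time and pool number). The interferon response genes and the other interferon-stimulated genes peak on control 4 weeks pool 1 at 1.17 and 0.87, macrophage markers stay between −0.17 and 0.21, and neutrophil markers peak on control 4 weeks pool 2 at 1.08.

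Markers of other cells were read beside the interferon response genes. The summed macrophage signal on control 4 weeks pool 1 was 374210, within the range of the other 7 arrays (298340 to 376370). Bright genes set such a sum, and single markers differed: Fcgr1 signals were 7884 and 2714 for control and 3398 and 2781 for transgenic pools at 4 weeks, and Cx3cr1 signals were 488 and 591 for control and 1409 and 2408 for transgenic pools. The genotype difference of Cx3cr1 at 4 weeks was 1.72 (SE 0.30, adjusted p = 0.399). This was the highest of the 12 macrophage markers, whose median was −0.08, with 8 lower and 4 higher. Fcgr1 and Cx3cr1 were named after their values were seen. Plasmacytoid dendritic cells are strong producers of type I interferon; their 7 markers summed to 10218 on control 4 weeks pool 1, the highest, and 6381 on transgenic 4 weeks pool 2, the lowest, with 7679 to 8857 on the other 6. Tcf4, which other cells express too, made up most of the sum, with 8090 and 5199 on those arrays. The median deviation of the 7 markers was 0.081 on control 4 weeks pool 1, 0.096 on control 4 weeks pool 2, 0.098 on control 48 hours pool 1, −0.14 on transgenic 4 weeks pool 2 and lowest, −0.32, on control 48 hours pool 2. That list includes Bst2, a gene of the set, and its defining marker Siglech was 121 and 349 on the 4 weeks control pools, so lower on pool 1, and 3 of the 7 markers were above the median on all arrays. Neutrophil markers summed to 23818 on control 4 weeks pool 2 and 11435 on pool 1, with 8259.6 and 8599.5 on the transgenic 4 weeks pools, and lay between 9828 and 17417 at 48 hours, with 6 of 9 markers above the median on all arrays. Luminal epithelial markers summed to 20165 and 10152 on the 4 weeks control pools, 17880.0 and 11631 on the 4 weeks transgenic pools, 17907 and 19047 on the 48 hours transgenic pools, and 4479 and 4757 on the 48 hours control pools, with 5 of 8 above the median on all arrays. The part of these cells in the differences of the interferon response genes was not tested.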

How the data were processed

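Macrophage RNA of 8 pools was measured on Affymetrix arrays after amplification in a two-cycle protocol, per the labels' protocols. The deposited table holds linear signal intensities, which the authors computed with MAS5 according to the submitters' processing notes (no version, no detection calls). Every array had a mean of 500 once the lowest and highest 2% of probe sets were left out. Of 45101 probe sets, 64 were array controls, 34945 named 1 gene, 932 several and 9160 none.

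The 25th percentile of all values, 30.8, was added to each signal before log2. Each gene took its probe set with the highest mean signal, and was tested if that probe set exceeded the array median on 2 arrays or more. Limma 3.58.1 (lmFit, contrasts.fit, eBayes with a trend, R 4.3.3) fitted 13041 genes with 1 mean per group, 4 residual degrees of freedom and a median of 6.21 prior ones. Two-sided p-values were adjusted over all genes of a comparison by Benjamini-Hochberg, with 0.05 as threshold. With 2 pools against 2, counts of pools that do not overlap are descriptions.

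The 42 genes and all lists were chosen with earlier results of these data known. Genes named outside the set are ligands, receptors, kinases, or up to 4 per list with the smallest p whose pools did not overlap at 4 weeks, and the markers Siglech, Tcf4, Fcgr1 and Cx3cr1, chosen after their values were seen; within the set every gene could be named. Promoters came from RefSeq, build GRCm38.p6, which had none for 10 of the 42 genes. The fit was tested on simulated data. Alternatives changed the scaling (quantile), the offset, the filter, the probe set rule, the prior trend, the array weights and the arrays used, added the pool number as a block or the actin ratio as a covariate, or left out each pool. Equal array medians were added after seeing the data. Pool numbers were not treated as pairs, since the labels give no shared origin. Figures were drawn with matplotlib.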

Additional observations from a re-analysis of the deposited data

Results flagged for a closer look

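For 3 of the 39 interferon response genes, in the probe sets used, both transgenic pools lay above both control pools at 48 hours and below both at 4 weeks. Opposite directions without overlap, in either order, were found for 717 (5.5%) of all genes tested. The count in the set is close to that share, so it is not a result about the set. Oas2 had a genotype difference of 0.305 at 48 hours and −1.19 at 4 weeks on the log2 scale. Irf9 had 0.422 and −0.744, and Ifi35 had 0.403 and −0.851. Limma's test of the difference between the times gave an adjusted p of 0.988 for each, with unadjusted p of 0.00279, 0.0275 and 0.0234, so no gene passed it. Ifi35 rests on a probe set that can match several transcripts. A different kept probe set gave −0.23 at 4 weeks, with control pools 2.23 apart and the transgenic mean between them.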

How the results depend on the processing

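Limma called none of the interferon response genes tested in any comparison under any of the 21 alternatives run for it, and of 816 values of single genes at 4 weeks 797 kept their sign. Leaving out a 48 hours pool, the filter and the prior trend cannot change these differences, so their agreement was fixed in advance. Of the 39 genes, 25 kept their sign in every alternative in which they were tested, and 14 turned it in some. The median genotype difference at 4 weeks was −1.34 with the actin ratio as a covariate and between −1.49 and −0.50 when 1 pool was left out. Leaving out 1 pool gave medians of −0.21 to 0.41 at 48 hours, −1.58 to −0.41 for the difference between the times, 0.18 to 1.18 for time in control, −0.63 to −0.05 for time in transgenic and −0.61 to −0.13 over both times. Genes without overlap then numbered 21 to 36 lower and 0 to 5 higher at 4 weeks, 3 to 21 lower and 5 to 24 higher at 48 hours, 1 to 9 lower and 14 to 33 higher for time in control, and 13 to 33 lower and 0 to 10 higher for time in transgenic. With a pool of the comparison left out, the share of all genes without overlap was 28.2% to 39.4% per direction, so these counts rise with fewer pools for all genes.

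Without control 4 weeks pool 1 the difference at 4 weeks, in the probe sets used, turned its sign for 10 genes. The range over the fits without 1 pool was −1.49 to 0.19 for Oas1a, −1.63 to 0.82 for Herc6, −1.62 to 0.085 for Ifih1, −1.19 to 0.068 for Eif2ak2, −1.36 to 0.86 for Stat2, −0.32 to 0.49 for Cxcl10, −1.44 to 0.26 for Trim30a, −1.36 to 0.13 for Parp9, −2.20 to 0.52 for Xaf1 and −1.01 to 0.28 for Ifitm3. Without control 4 weeks pool 2 it turned for Dhx58 (−0.99 to 1.89) and Cxcl9 (−1.74 to 0.43), and with the actin covariate for the same genes (−0.92 and 0.32). Without transgenic 4 weeks pool 2 it turned for Irf1 (−0.59 to 0.091), Stat2 (0.41), Cxcl10 (−0.32) and Ifi27l2a (−1.35 to 0.011), and with the mean of all kept probe sets for Dhx58 (−0.012). Apart from fewer arrays or other probe sets, the cause was not tested.

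Over all genes, the time comparison in control called 1 gene, and 0 with the 75th percentile filter, the mean of probe sets, no trend, array weights or the 4 arrays alone, 4 with the pool number as a block, 7 with the actin covariate and 0 to 7 without 1 pool. At 4 weeks 2 genes were called with the block and 1 with the 4 arrays alone, at 48 hours 1 with the 4 arrays alone, and in the other comparisons 0 to 1 without 1 pool. Pools of the same number share only a number: correlations of their deviations were 0.02 at 48 hours and 0.12 at 4 weeks, −0.085 between the control times and 0.13 between the transgenic ones. The fit to only the 4 arrays was not run for the difference between the times or over both times. With 2 pools a group, an array at a group's extreme cannot be weighed against further replicates, and the number of arrays limits precision.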
